A study of Homo sapiens with 7 samples.

Results

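Cytosolic ribosomal proteins form, together with the ribosomal RNAs, the small and the large subunit of the ribosome that translates nuclear-encoded mRNAs. The genes examined here are all rows of the deposited table that are typed as protein coding and whose symbol begins with RPL (large subunit) or RPS (small subunit), with RPLP0 to RPLP2 and RPSA included and with RPS6K kinases and genes of the Y chromosome left out. This rule took 89 of 58174 genes, chosen by name and not by any measured value. Of the 101 protein-coding rows with such a symbol, 10 RPS6K rows and 2 Y rows were left out. The 89 members are 46 large-subunit genes, 31 small-subunit genes, 8 paralogs (RPL3L, RPL7L1, RPL10L, RPL22L1, RPL26L1, RPL36AL, RPL39L and RPS27L) and 4 other rows that the rule takes in. These last 4 are the read-through genes RPL17-C18orf32, RPL36A-HNRNPH2 and RPS10-NUDT3, and RPS19BP1, which encodes a binding partner of RPS19 and no subunit of the ribosome.

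RNA was sequenced from Huh-7, an established line derived from a hepatocellular carcinoma, 72 h after transfection. The control group (siC, 3 libraries) received a control siRNA and the knockdown group (siImp1, 4 libraries) received siRNAs directed against IGF2BP1, an oncofetal RNA-binding protein also called IMP1. Both groups were transfected, so a non-transfected state was not compared, and all libraries come from 1 cell line. The labels do not say whether replicates are separate cultures, so p-values measure the spread between these libraries, which may be technical. The comparison addresses how ribosomal protein mRNAs differed between cells with and without IGF2BP1 depletion.

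Ribosomal proteins are made in equimolar amounts from some of the most abundant mRNAs of a cell, and growing tumour cells need many ribosomes. In vertebrates most of these mRNAs carry a terminal oligopyrimidine (TOP) tract, a cytosine at the cap followed by a run of pyrimidines. Through this tract the protein LARP1 and the mTORC1 kinase control their translation and storage together with mRNAs of elongation factors. Several members also act outside the ribosome, such as RPL5, RPL11 and RPL23, which bind the p53 ligase MDM2.

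The start windows show this shared feature, which the choice of members did not use. Each window below holds 15 bases before and 15 bases from an annotated transcription start (RefSeq, GRCh38.p14), 5′ to 3′ on the strand of the gene. Capitals mark the run of C and T that begins with a C at the annotated start. The first 5 are of genes lower in siImp1 in the fit without siC rep3, and RPLP0 is the reference transcript of the study. RPL4, RPL15 and RPL26L1, also lower in that fit, had no C at an annotated start. The pairs RPL22 with RPL22L1 and RPS27 with RPS27L set a gene beside its paralog.
RPL10 (chrX:154398362-154398391, plus strand): caggcggaggagcgcCTCTTTCCCTTCggt
RPS12 (chr6:132814554-132814583, plus strand): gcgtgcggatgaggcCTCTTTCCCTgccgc
RPL13A (chr19:49487593-49487622, plus strand): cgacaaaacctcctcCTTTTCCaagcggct
RPS21 (chr20:62387088-62387117, plus strand): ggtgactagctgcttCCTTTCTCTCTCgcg
RPS23 (chr5:82278340-82278369, minus strand): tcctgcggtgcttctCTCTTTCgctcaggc
RPLP0 (chr12:120201097-120201126, minus strand): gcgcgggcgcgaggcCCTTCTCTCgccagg
RPL4 (chr15:66504841-66504870, minus strand): tacagcgggagtggtaagcacttccttttc
RPL26L1 (chr5:172958714-172958743, plus strand): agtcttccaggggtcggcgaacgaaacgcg
RPL22 (chr1:6199581-6199610, minus strand): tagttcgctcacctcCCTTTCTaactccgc
RPL22L1 (chr3:170870181-170870210, minus strand): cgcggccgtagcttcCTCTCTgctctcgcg
RPS27 (chr1:153990747-153990776, plus strand): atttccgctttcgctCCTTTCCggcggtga
RPS27L (chr15:63157463-63157492, minus strand): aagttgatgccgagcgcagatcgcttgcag

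A start tract was counted where a C at an annotated start, on the gene's own strand, was followed by at least 4 further C or T. Of the 68 members with a RefSeq start, 47 had one (69.1%), against 5.14% of all 27305 genes of the same promoter table and 6.36% of the protein-coding genes of the deposited table. The tract was found in 28 of 38 large-subunit genes and 18 of 24 small-subunit genes. Of 6 paralogs with a RefSeq start, RPL22L1 had a tract and 5 did not. Some members have several annotated starts, and 1 with a tract was sufficient. A start annotated a few bases away from the one in use can be scored as having no tract. In the RPL4 window a run of C and T lies a few bases after the annotated start. The starts used in Huh-7 cells were not measured. RPL10 has 3, of which the one shown has the tract. The tract was also present in 14 of 15 listed TOP mRNAs outside the family, but in 6 of 69 genes of mitochondrial ribosomal proteins.

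The libraries held 12826550 to 33212205 reads on genes, recovered from the deposited FPKM values (fragments scaled to gene length and library size). IGF2BP1 measured 81.9, 80.4 and 84.4 FPKM in siC rep1 to rep3 and 15.6, 15.7, 16.6 and 15.3 FPKM in siImp1 rep1 to rep4, 19.2% of the siC mean. All 11 markers of hepatocytes or hepatocellular carcinoma were at 14.1 FPKM or more in each library, whereas 4 of 4 leukocyte, 2 of 2 erythroid and 3 of 3 other epithelial markers were below 1 FPKM. Of 5 fibroblast markers LUM (5.44 to 8.09 FPKM) and COL1A2 (0.710 to 1.46 FPKM), and of 3 endothelial markers PECAM1 (2.58 to 3.29 FPKM), reached 1 FPKM. One control library, siC rep3, stands apart from siC rep1 and rep2. The chi-square per degree of freedom over the members with at least 20 reads was 30.3 between siC rep1 and rep2, 628 between rep1 and rep3 and 604 between rep2 and rep3, and from 12.9 to 63.4 between siImp1 libraries. No pair of libraries therefore agreed within sampling noise. For this reason the log2 changes below are given with and without siC rep3. As FPKM values are shares of a library of bulk RNA, fewer cells and less RNA per cell cannot be told apart.

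Reads on the 89 members made up 4.40%, 4.29% and 3.13% of all reads in siC rep1 to rep3 and 3.90%, 3.67%, 3.88% and 4.11% in siImp1 rep1 to rep4. All 4 siImp1 libraries thus lay below siC rep1 and rep2 and above siC rep3. The difference of the group means was -0.048 percentage points with all libraries and -0.45 without siC rep3. Large-subunit genes took 2.68%, 2.60% and 1.95% of the reads in siC and 2.24% to 2.49% in siImp1. For small-subunit genes these shares were 1.66%, 1.63% and 1.141% in siC and 1.38% to 1.56% in siImp1, the same order of libraries.

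Of the 89 members, 84 averaged 1 FPKM or more across all libraries and were tested with limma among 14839 genes. The lowest read number of a tested member in any library was 142. The 5 that were not tested are RPL10L, RPL3L and the 3 read-through genes. RPL10L, an autosomal retrocopy of RPL10 known from the male germ line, was at 0.903, 1.08 and 0.805 FPKM in siC and 0.651 to 0.854 FPKM in siImp1, from 7 to 28 reads. RPL3L, the counterpart of RPL3 in striated muscle, had 5 reads in siC rep1, 2 in siImp1 rep3, 2 in siImp1 rep4 and 0 in the others. RPL36A-HNRNPH2 had no read in any library and RPS10-NUDT3 a single one. Of the tested members, 63 reached a mean of 50 FPKM in siC and 44 reached 100 FPKM.

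The highest levels per length were those of RPS12, a peripheral protein of the small-subunit head. Its FPKM values were 1670, 1652 and 1019 in siC and 1202, 1127, 1221 and 1299 in siImp1. RPS27, a zinc-binding small-subunit protein, followed with 704, 672 and 378 FPKM in siC and 498 to 597 FPKM in siImp1. RPLP0, described further on, and RPS2, which lies near the mRNA entry channel, were also among the highest. RPS2 had 473, 488 and 430 FPKM in siC and 364 to 484 FPKM in siImp1. The siC values of RPS27, RPLP0 and RPS2 overlap, so their order is not resolved by 3 libraries. The order also depends on the length used. The deposited gene length, which counts all exons of a gene, had a median of 2.86 times the canonical transcript among tested members and was 33.0 times it for RPS29. Per canonical length RPS12 stayed at rank 1, RPLP0 moved from 4 to 2 and RPS29 from 76 to 25. RPL36A, at 2.67 to 3.58 FPKM, was the lowest tested member, and shares its exons with the read-through gene RPL36A-HNRNPH2.

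With all 7 libraries, no ribosomal protein gene passed the threshold of an adjusted p of 0.01 in either direction by limma. Over all genes tested, 2.28% were called lower and 1.65% higher. Before adjustment (p under 0.05) 10 members were lower and 1 was higher, while 14.8% of all genes were lower and 11.0% higher. The median log2 change of the members, siImp1 minus siC on the log2(FPKM + 0.1) scale, was -0.017, and that of all genes was also -0.017. Of the 84, 44 had a lower and 40 a higher mean in siImp1. All siImp1 values lay below all siC values for 10 members, 11.9% of the 84, against a background of 15.1% of all genes. They lay above all siC values for RPS10 alone, 1.19% of the members, where the background is 11.9%. Neither share exceeded that of all genes.

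**Figure D1:**
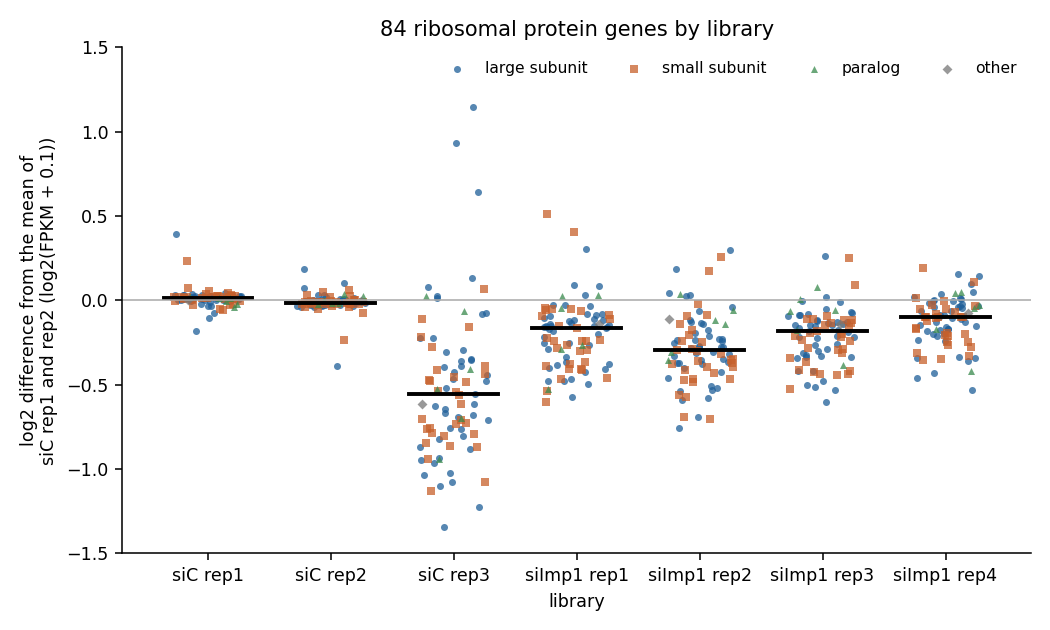
Each point is 1 of the 84 tested ribosomal protein genes in 1 library, as its log2(FPKM + 0.1) minus the mean of siC rep1 and rep2 (vertical axis), for the 7 libraries (horizontal axis); bars are medians. The median is -0.56 in siC rep3 and from -0.30 to -0.10 in the siImp1 libraries.

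The plot of members by library shows how far siC rep3 moved. Its value was below the other 6 libraries for 59 of the 84 members and above them for 5, and below both siC rep1 and rep2 for 75. Members in siC rep3 measured from 39.4% (RPL31) to 221% (RPLP2) of the mean of siC rep1 and rep2, with a median of 67.9%. On the log2 scale the median distance from siC rep1 and rep2 was -0.56 in siC rep3, and -0.17, -0.30, -0.18 and -0.10 in siImp1 rep1 to rep4. The 644 other protein-coding genes that averaged 50 FPKM or more had medians of -0.18 in siC rep3 and -0.11, -0.17, -0.10 and -0.062 in siImp1. The members lay below this comparison group in each of the 5 libraries, most of all in siC rep3. Transcript length and base composition moved with the distance of siC rep3. Over 10569 other protein-coding genes Spearman's rho of that distance was 0.33 with canonical length and -0.56 with GC content, and over the 84 members it was 0.28 and 0.18. The distance of siImp1 rep2 from the other siImp1 libraries gave 0.28 and -0.49 over the other genes and 0.23 and 0.045 over the members. For the log2 change without siC rep3 the values were 0.11 and -0.29 over the other genes and -0.039 and -0.011 over the members. Members are short, with a median canonical transcript of 802.5 bases against 3366 in other tested protein-coding genes, while their median GC content of 47.5% equals that of the others. Among transcripts shorter than 600 bases the median distance of siC rep3 was -0.72 for 22 members and -0.17 for 168 other genes. From 600 to below 800 bases the medians were close, at -0.45 for 20 members and -0.39 for 182 other genes. In each longer length class the members again had the lower median. These rho values are across genes that share libraries and are descriptions, and the part of length and GC content in the member values was not tested.

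The acidic stalk proteins RPLP1 and RPLP2, and RPL28, went against most of the family in siC rep3. RPL27A and RPS4X were also highest in that library, at 102% and 105% of the mean of siC rep1 and rep2. RPLP1 and RPLP2 form, with RPLP0, the stalk that recruits elongation factors to the large subunit. RPLP1 had 63.7, 63.6 and 121 FPKM in siC and 50.4, 65.1, 50.4 and 56.2 FPKM in siImp1, and RPLP2 had 43.4, 45.5 and 98.4 FPKM in siC and 41.1, 54.8, 37.1 and 37.8 FPKM in siImp1. For both genes siC rep3 was the highest library and siImp1 rep2 the highest of its group. Their log2 changes of -0.51 and -0.46 with all libraries were -0.20 and -0.076 without siC rep3, none past the threshold. RPL28, a large-subunit protein specific to eukaryotes, had 24.3, 24.2 and 37.9 FPKM in siC and 18.8, 22.2, 18.1 and 21.5 FPKM in siImp1. It lay lower in all siImp1 libraries, with a log2 change of -0.48 ± 0.17 (SE, by limma, adjusted p = 0.129) with all libraries and -0.27 ± 0.09 (adjusted p = 0.0801) without siC rep3. RPLP1 and RPLP2 were chosen after their values were seen.

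Without siC rep3, 12 of the 84 members were lower in siImp1 at an adjusted p of at most 0.01 by limma and none was higher. This is 14.3% of the members, while the background is 6.67% of all genes lower and 3.59% higher. Before adjustment (p under 0.05) 47 members were lower, against 23.1% of all genes, and 0 were higher, against 15.2%. At an adjusted p of at most 0.05, 28 were lower, against 15.7% of all genes. Of the 12, 6 belong to the large subunit (RPL4, RPL10, RPL13A, RPL14, RPL15 and RPL27A), 5 to the small subunit (RPS12, RPS13, RPS20, RPS21 and RPS23) and 1 is the paralog RPL26L1. RPL13A, RPL14 and RPS21 are named because they passed. The median log2 change of the members was -0.19 against -0.031 for all genes, and 76 members had a lower mean in siImp1. Other short genes had similar medians. Below 600 bases it was -0.19 for 22 members and -0.19 for 168 other protein-coding genes. From 600 to below 800 bases it was -0.15 for 20 members and -0.13 for 182 others. From 2500 bases it was -0.26 for 10 members and -0.027 for 6944 others. The part of length in the change was not tested. All 4 siImp1 values lay below siC rep1 and rep2 for 59 members, 70.2% of the 84 against 29.3% of all genes. They lay above both for RPL32 and RPS10, 2.38% of the members against 20.5% of all genes. In siImp1 the members measured from 66.3% (RPL41) to 119% (RPS10) of the mean of siC rep1 and rep2, with a median of 88.0%. Among genes of high level the share of lower calls was not larger in the family. It was 10 of 63 members and 128 of 644 other protein-coding genes averaging 50 FPKM or more, whose median log2 changes were -0.20 and -0.11.

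The 12 calls rest on 2 control libraries. With either siC rep1 or siC rep2 also left out none of the 12 passed. Without siImp1 rep1, or without siImp1 rep3, 2 of the 12 passed (RPL10 and RPL15), and without siImp1 rep2, or without siImp1 rep4, 9 of the 12 passed. RPL27A passed in none of these 6 fits. The log2 change of each of the 12 stayed below 0 in all 6 of these fits. After quantile normalization, which makes the distributions of the libraries equal, 4 of the 12 still passed, namely RPL4, RPL10, RPL15 and RPS20, and RPL32 was called higher. The log2 change of RPS12, the member of highest level, turned from -0.46 to 0.023 with it.

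**Figure D2:**
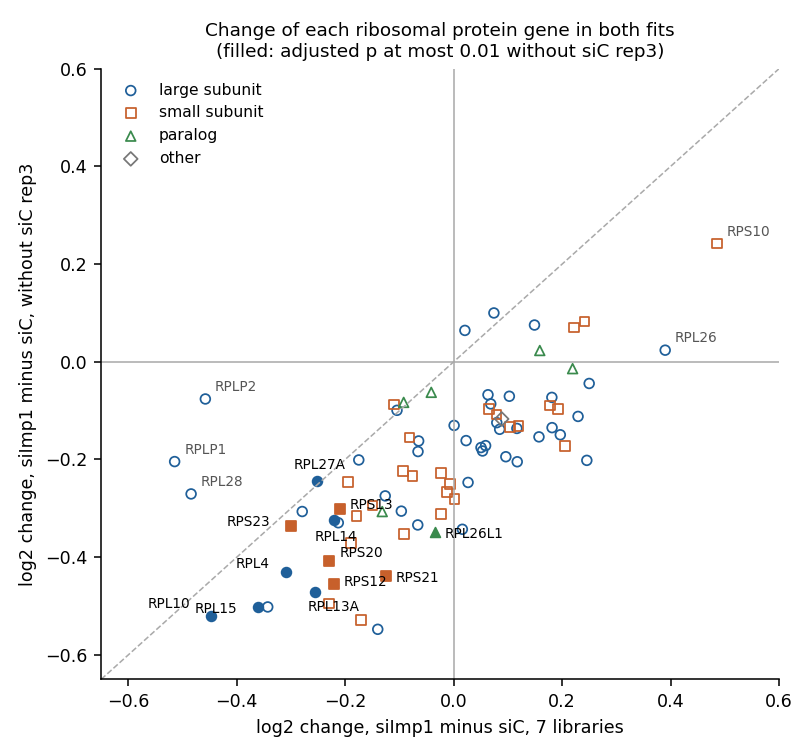
Each symbol is 1 of the 84 tested members, with its log2 change (siImp1 minus siC, log2(FPKM + 0.1)) over all 7 libraries on the horizontal axis and without siC rep3 on the vertical axis; filled symbols passed an adjusted p of 0.01 without siC rep3 and the dashed line marks equal values. Most members lie below the dashed line, and RPLP1, RPLP2 and RPL28 are among those above it.

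RPL10, a late-joining protein next to the catalytic centre of the large subunit, came closest to a call with all libraries. Its FPKM values were 124, 122 and 105 in siC and 82.4, 85.8, 85.0 and 89.4 in siImp1. Each siImp1 library was below each siC library, siC rep3 included. The log2 change was -0.45 ± 0.08 (SE, by limma, adjusted p = 0.0126) with all libraries and -0.52 ± 0.04 (adjusted p = 0.000909) without siC rep3. It passed 0.01 with all libraries when only protein-coding genes were tested, with voom on recovered reads and with the GC trend removed. The gene (X:154389955-154409168, GENCODE 44 on GRCh38) overlaps DNASE1L1 on the other strand, and the strand setting of the counting is not given in the sources used here. RPL10 has 19 pseudogenes in the table, with 18.5 reads per 100 of its own. RPL10P16 and RPL10P9, 2 of these copies, were also lower (log2 -0.45 and -0.49, limma adjusted p 0.00526 and 0.00708), and reads may be split among these copies. Adding pseudogene reads to their parent genes left RPL10 at -0.51 without siC rep3, and all 12 calls remained.

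A further 3 members reached an adjusted p of 0.05 with all libraries, a threshold at which 6.81% of all genes were lower. RPS23, at the decoding centre, had 101, 100.5 and 93.2 FPKM in siC and 78.2, 80.6, 75.4 and 84.8 FPKM in siImp1. Its log2 change was -0.30 ± 0.07 (SE, by limma, adjusted p = 0.0318) with all libraries and -0.34 ± 0.05 (adjusted p = 0.00708) without siC rep3. RPL27A, a protein of the large-subunit body, had 39.7, 40.0 and 40.5 FPKM in siC and 33.3, 32.8, 33.1 and 35.2 FPKM in siImp1. For this gene siC rep3 was at 102% of the mean of siC rep1 and rep2. Its log2 change was -0.25 with (limma adjusted p = 0.026) and -0.24 without that library (adjusted p = 0.00944). RPL23A, near the exit of the peptide tunnel, had 203, 203 and 192 FPKM in siC and 156, 157, 166 and 177 FPKM in siImp1. It was at -0.28 (adjusted p = 0.0482) and -0.31 (adjusted p = 0.0137). The siC and siImp1 values of all 3 genes did not overlap. Each of them overlaps a coding gene on the other strand.

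**Figure D3:**
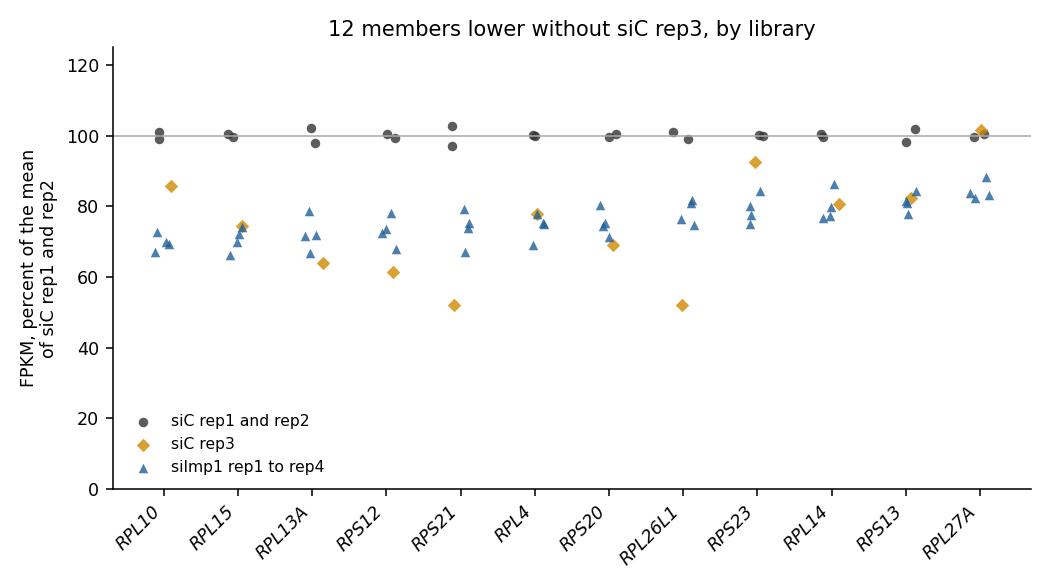
FPKM of the 12 members lower without siC rep3 (horizontal axis) in each library, as a percentage of the mean of siC rep1 and rep2 (vertical axis). All siImp1 libraries lie below siC rep1 and rep2, while siC rep3 lies above the siImp1 libraries for RPL10, RPL15, RPL4, RPS23 and RPL27A and below them for RPL13A, RPS12, RPS21, RPS20 and RPL26L1.

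The other large-subunit genes of the 12 differed in where siC rep3 lay. RPL15, a core protein bound to ribosomal RNA, had 253, 251 and 188 FPKM in siC and 182, 167, 177 and 187 FPKM in siImp1, with siC rep3 just above the highest siImp1 library. Its log2 change was -0.36 ± 0.12 (SE, by limma, adjusted p = 0.106) with all libraries and -0.50 ± 0.05 (adjusted p = 0.00199) without siC rep3. RPL4, which lines the peptide tunnel, had 361, 360 and 281 FPKM in siC and 272, 249, 270 and 280 FPKM in siImp1, again with siC rep3 next to the highest siImp1 value. It was at -0.31 (adjusted p = 0.125) and -0.43 (adjusted p = 0.00357). RPL13A, known as a component of a translational silencing complex after interferon gamma, had 514, 493 and 322 FPKM in siC and 362, 336, 361 and 396 FPKM in siImp1, where siC rep3 was the lowest of all. Its values were -0.26 (adjusted p = 0.408) and -0.47 (adjusted p = 0.00579). RPL14 had 71.4, 72.0 and 57.9 FPKM in siC and 54.9, 55.4, 57.1 and 61.8 FPKM in siImp1, with siC rep3 inside the siImp1 range. Its values were -0.22 (adjusted p = 0.197) and -0.32 (adjusted p = 0.00955).

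Among small-subunit genes, siC rep3 was the lowest library for RPS12, RPS20 and RPS21. The values of RPS12 are given above, and its log2 change was -0.22 ± 0.19 (SE, by limma, adjusted p = 0.53) with all libraries and -0.46 ± 0.07 (adjusted p = 0.00571) without siC rep3. RPS20, a head protein, had 194, 192 and 133 FPKM in siC and 145, 138, 144 and 155 FPKM in siImp1. It was at -0.23 (adjusted p = 0.368) and -0.41 (adjusted p = 0.00393). RPS21, a small protein specific to eukaryotes, had 477, 451 and 242 FPKM in siC and 350, 311, 343 and 368 FPKM in siImp1, and was at -0.13 (adjusted p = 0.795) and -0.44 (adjusted p = 0.00842). RPS13, which takes part in the bridge between the subunits, had 154, 159 and 129 FPKM in siC and 127, 122, 127 and 132 FPKM in siImp1, with siC rep3 inside the siImp1 range. Its log2 change was -0.21 (adjusted p = 0.187) and -0.30 (adjusted p = 0.00537).

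RPLP0, the RNA-binding base of the stalk and a widely used reference transcript, had 513, 497 and 479 FPKM in siC and 454, 418, 435 and 452 FPKM in siImp1. The 2 groups did not overlap, and siImp1 lay lower also against siC rep3. The log2 change was -0.18 ± 0.07 (SE, by limma, adjusted p = 0.186) with all libraries and -0.20 ± 0.05 (adjusted p = 0.0313) without siC rep3, neither past the threshold of 0.01. Its sign depended on the scaling, at 0.11 after quantile normalization and 0.016 as TPM with all libraries. RPSA, the laminin receptor and a small-subunit protein, had 386, 414 and 301 FPKM in siC and 343, 304, 295 and 346 FPKM in siImp1. It was at -0.18 (adjusted p = 0.447) and -0.32 (adjusted p = 0.0357). RPS6, the substrate of the S6 kinases, had 246, 238 and 142 FPKM in siC and 201, 175, 205 and 226 FPKM in siImp1, with siC rep3 the lowest library (-0.012 and -0.27, adjusted p 0.982 and 0.0924). RPS27A, made as a fusion with ubiquitin, had 82.4, 85.8 and 64.0 FPKM in siC and 71.0, 65.9, 73.1 and 78.4 FPKM in siImp1 (-0.093 and -0.22, adjusted p 0.681 and 0.0648).

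RPS10 was the member that went in the other direction. This small-subunit protein at the mRNA entry side had 25.1, 23.3 and 14.5 FPKM in siC and 34.4, 28.9, 25.7 and 26.0 FPKM in siImp1. Each siImp1 library was above each siC library, with siImp1 rep3 and rep4 closest to siC rep1. The log2 change was 0.49 ± 0.20 (SE, by limma, adjusted p = 0.187) with all libraries and 0.24 ± 0.12 (adjusted p = 0.208) without siC rep3, and neither passed. RPS10 overlaps the read-through gene RPS10-NUDT3 on its own strand.

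The large-subunit proteins that bind MDM2 did not pass the threshold in either fit. RPL5 had 301, 305 and 164 FPKM in siC and 296, 280, 288 and 313 FPKM in siImp1, and RPL11 had 229, 219 and 175 FPKM in siC and 197, 167, 207 and 222 FPKM in siImp1. RPL23 had 96.9, 94.2 and 48.9 FPKM in siC and 84.9, 72.2, 86.2 and 89.3 FPKM in siImp1. In siC rep3 RPL5 and RPL23 were at their lowest, and the siImp1 values of RPL5 and RPL11 overlapped siC rep1 and rep2 while those of RPL23 lay below them. With all libraries their log2 changes were 0.25, -0.066 and 0.12 (limma adjusted p 0.539, 0.81 and 0.815), and without siC rep3 -0.044, -0.18 and -0.20 (adjusted p 0.592, 0.277 and 0.142), so the sign turned for RPL5 and RPL23. RPS19 and RPS26 are mutated in Diamond-Blackfan anaemia, and RPS14 is lost in the 5q syndrome. RPS19 had 195, 189 and 138 FPKM in siC and 163, 157, 163 and 171 FPKM in siImp1, at -0.076 with all libraries (adjusted p = 0.765) and -0.23 without siC rep3 (adjusted p = 0.0133). RPS26 had 52.2, 56.7 and 37.3 FPKM in siC and 39.5, 40.8, 42.8 and 45.3 FPKM in siImp1, at -0.19 (adjusted p = 0.475) and -0.37 (adjusted p = 0.0112). RPS14 had 90.7, 88.0 and 63.8 FPKM in siC and 85.7, 79.0, 82.3 and 87.6 FPKM in siImp1, at 0.065 (adjusted p = 0.805) and -0.096 (adjusted p = 0.221). For these 3 all siImp1 libraries lay below siC rep1 and rep2 and above siC rep3.

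**Figure D4:**
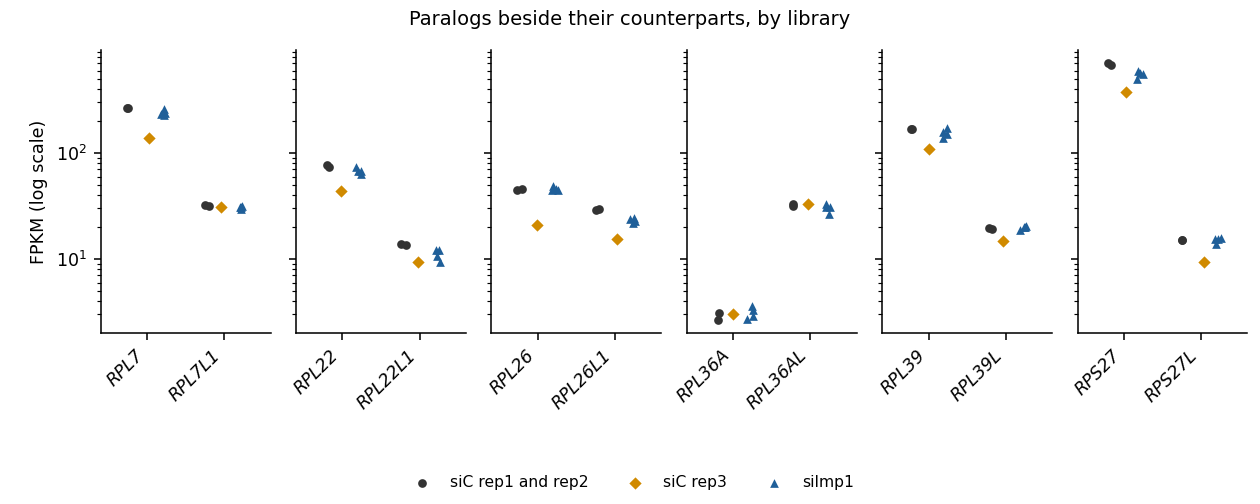
FPKM on a log scale (vertical axis) of 6 ribosomal protein genes and their paralogs (horizontal axis) in siC rep1 and rep2, siC rep3 and the 4 siImp1 libraries. RPL36AL is the paralog that lies above its counterpart, RPL36A, which shares exons with a read-through gene.

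Of the 6 tested paralogs, 5 lay below their counterpart per length in every library. RPL7L1, a nucleolar relative of RPL7, had 29.6 to 32.5 FPKM over the 7 libraries, against 140 to 267 FPKM of RPL7. RPL22L1 had 9.44 to 13.9 FPKM (RPL22 44.3 to 76.3 FPKM), RPL39L 14.7 to 20.6 FPKM (RPL39 110 to 171 FPKM) and the p53-inducible RPS27L 9.32 to 15.7 FPKM (RPS27 378 to 704 FPKM). RPL36AL, a retrotransposed copy of RPL36A, was the exception with 26.9 to 33.2 FPKM. RPL26L1 came nearest to its counterpart, with 29.8, 29.3 and 15.4 FPKM in siC and 24.2, 23.9, 22.6 and 22.1 FPKM in siImp1. RPL26 had 44.7, 45.9 and 21.1 FPKM in siC and 44.5, 46.2, 45.1 and 48.5 FPKM in siImp1. Both were lowest in siC rep3, but in siImp1 RPL26L1 was below siC rep1 and rep2 in all libraries while RPL26 spanned them. The log2 change of RPL26L1 was -0.035 (limma adjusted p = 0.948) with all libraries and -0.35 ± 0.05 (adjusted p = 0.00536) without siC rep3, and that of RPL26 was 0.39 (adjusted p = 0.414) and 0.024 ± 0.046 (adjusted p = 0.748). The difference between these 2 genes was not tested. Of the other paralogs and counterparts, none passed in either fit. Their log2 changes, with all libraries and then without siC rep3, were -0.041 and -0.063 for RPL7L1, -0.13 and -0.31 for RPL22L1, -0.092 and -0.083 for RPL36AL, 0.16 and 0.023 for RPL39L and 0.22 and -0.014 for RPS27L. For the counterparts they were 0.16 and -0.15 for RPL7, 0.12 and -0.14 for RPL22, 0.074 and 0.10 for RPL36A, 0.079 and -0.12 for RPL39 and -0.023 and -0.31 for RPS27. The sign turned for RPL7, RPL22, RPL39 and RPS27L. RPL3, whose paralog RPL3L was nearly absent, had 284, 279 and 192 FPKM in siC and 257, 233, 256 and 261 FPKM in siImp1, at 0.023 with all libraries (adjusted p = 0.948) and -0.16 without siC rep3 (adjusted p = 0.0817).

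Both subunits had lower medians without siC rep3. The median log2 change was 0.022 for 46 large-subunit and -0.076 for 31 small-subunit genes with all libraries, and -0.18 and -0.25 without siC rep3. Neither subunit had a call with all libraries, where 2.28% of all genes were lower and 1.65% higher. Without siC rep3 6 of 46 and 5 of 31 were lower. The background for these counts, and for those by start tract below, is 6.67% of all genes lower. Median log2 changes without siC rep3 were -0.20 with a tract at an annotated start (47 genes, 8 lower) and -0.16 with none (20 genes, 3 lower). Their ranges were from -0.55 to 0.24 and from -0.53 to 0.075, and the difference was not tested. Members scored with none may still carry a tract at the start in use, so these are not groups with and without TOP mRNAs. With all libraries the medians were -0.012 and -0.0073. Outside the 12 calls RPL41, RPS28 and RPS29 also had low log2 changes without siC rep3 (-0.55, -0.53 and -0.49, limma adjusted p 0.124, 0.0127 and 0.0273), and were chosen after their values were seen. With all libraries they were at -0.14, -0.17 and -0.23 (adjusted p 0.848, 0.75 and 0.567). For RPL41 siC rep1 read 359 FPKM and siC rep2 208 FPKM, so its mean rests on siC rep1.

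Copies limit what can be said of single members. Of the tested members 77 have pseudogene rows in the table, 1129 rows in all. For 22 of them these rows held at least 10 reads per 100 reads of the member, and for RPL21, RPS18 and RPL41 more reads than the member itself (487, 139 and 115 per 100). Of 174 pseudogene rows tested, 2 were lower (1.15%, against 2.28% of all genes) and 1 higher (against 1.65%) with all libraries. Without siC rep3 6 were lower (3.45%, against 6.67% of all genes), among them copies of RPL10, RPL13A and RPS26. Within the bounds of 28 tested members lie 60 snoRNA genes on the same strand. Of the tested members, 26 overlap a coding gene on the other strand and 8 one on their own.

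**Figure D5:**
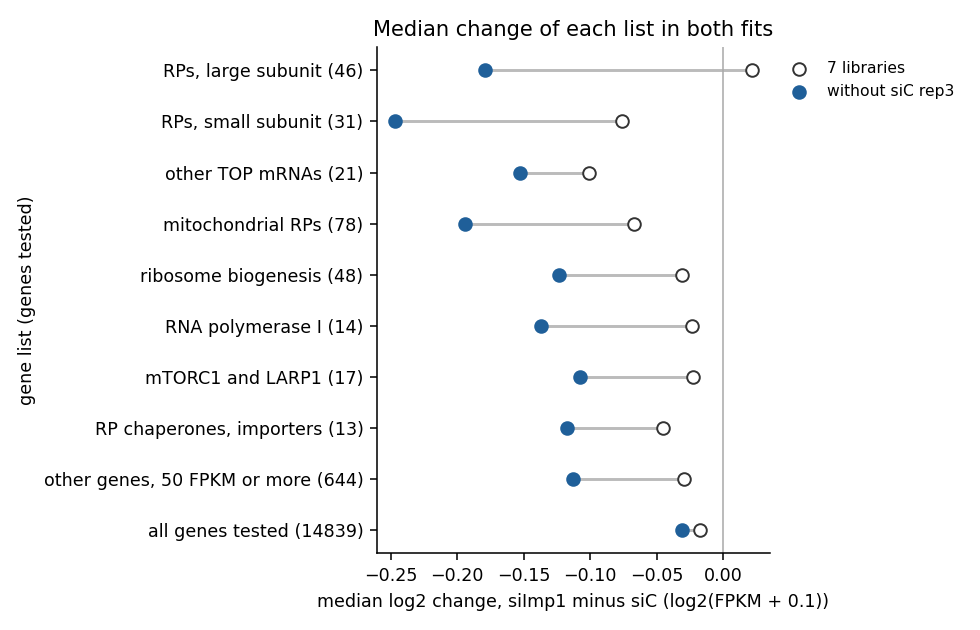
Median log2 change (siImp1 minus siC, log2(FPKM + 0.1), horizontal axis) of 10 gene lists (vertical axis, with the number of genes tested), with all 7 libraries (open circles) and without siC rep3 (filled circles). Each median is lower without siC rep3, and those of ribosomal protein genes move most.

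Other genes of the ribosome pathway were set beside the family. The TOP mRNAs of translation factors and related genes (21 tested) had medians of -0.10 with all libraries and -0.15 without siC rep3. None passed with all libraries, and EEF1A1 and EEF1B2, subunits of the factor that delivers aminoacyl-tRNA, were lower without siC rep3. These 2 calls are 9.52% of the 21, against 6.67% of all genes. EEF1A1 had 1719, 1737 and 1478 FPKM in siC and 1295, 1221, 1277 and 1321 FPKM in siImp1, without overlap of the groups (log2 -0.36 and -0.44, limma adjusted p 0.0685 and 0.00322). EEF1B2 was at -0.28 and -0.55 (adjusted p 0.45 and 0.00688). Among 48 ribosome biogenesis factors, 2 of the large-subunit assembly pathway were lower with all libraries and 7 without siC rep3. These are 4.17% and 14.6% of the list, against 2.28% and 6.67% of all genes. NIP7 had 20.9, 21.3 and 17.9 FPKM in siC and 12.6, 12.9, 11.9 and 12.1 FPKM in siImp1 (log2 -0.69, adjusted p = 0.00274, and -0.77 without siC rep3). RPF2, which brings RPL5, RPL11 and the 5S RNA to the preribosome, had 22.7, 23.1 and 22.4 FPKM in siC and 17.4, 17.4, 17.3 and 16.4 FPKM in siImp1 (log2 -0.41, adjusted p = 0.00472, and -0.42 without siC rep3). For both genes siC rep3 lay above all siImp1 libraries.

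No gene of RNA polymerase I and its factors (14 tested) passed in either fit. With all libraries 3 of these were lower and 2 higher before adjustment (limma p under 0.05), against 14.8% and 11.0% of all genes. Of 17 genes of mTORC1 and LARP1, 1 was higher, against 1.65% of all genes with all libraries and 3.59% without siC rep3. This was DEPTOR, an inhibitor of mTOR. Its values were 2.03, 2.26 and 3.08 FPKM in siC and 5.83, 5.82, 4.69 and 5.02 FPKM in siImp1 (log2 1.11, limma adjusted p = 0.00638, and 1.27 without siC rep3). MLST8, a subunit of the kinase complex, was lower without siC rep3 (log2 -0.36 with all libraries, limma adjusted p = 0.0157, and -0.41 without, adjusted p = 0.00281). This lower call is 5.88% of the 17, against 6.67% of all genes. Of 78 mitochondrial ribosomal protein genes, which encode the separate ribosome of that organelle, none passed with all libraries. Without siC rep3 6 were lower, 7.69% against 6.67% of all genes. Their medians were -0.067 with all libraries and -0.19 without siC rep3. The 13 dedicated chaperones and importers of ribosomal proteins had no call in either fit and medians of -0.045 and -0.12. Before adjustment (limma p under 0.05) none of the 13 passed with all libraries, against 14.8% of all genes lower and 11.0% higher. Without siC rep3 6 were lower and 1 higher, against 23.1% and 15.2% of all genes.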

How the data were processed

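Total RNA of Huh-7 cells was depleted of ribosomal RNA and made into directional libraries (siC 3, siImp1 4). The authors used cutadapt 1.14 for clipping, HISAT2 2.1.0 for alignment to GRCh38 and featureCounts 1.5.3 with Ensembl genes for counting, and deposited FPKM values divided by TMM-scaled library sizes (edgeR 3.18.1). The strand and multi-mapping settings of the counting are not given in the sources used here. Deposited columns of fold change, p-value and FDR were not used. FPKM times deposited gene length gave whole reads, within 0.05, for 100% of values above 0.

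Genes averaging 1 FPKM or more (14839) were tested on log2(FPKM + 0.1) by limma-trend (limma 3.58.1, R 4.3.3) with no covariate, as a two-sided test, with p-values adjusted over all genes tested after Benjamini and Hochberg and a threshold of 0.01. The scale understates changes of low genes. Each fit was repeated without siC rep3. Canonical lengths, GC content, snoRNAs and overlaps came from GENCODE 44 on GRCh38 (57392 of 58174 identifiers matched) and start windows from RefSeq. The fit was tested on simulated data.

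Groups came from sample titles. Genes named with values in every library are RPLP0, RPSA, RPS6 and RPS27A, the members with the 5 highest and 3 lowest means above 0 in siC, those with the 10 smallest p-values, or 5 without siC rep3, the paralogs with their counterparts, and RPL5, RPL11, RPL23, RPS14, RPS19 and RPS26. Others were chosen after their values were seen. Some results the rule would name are not reported here. The members and lists were chosen with earlier results of these data known. Alternatives were other pseudocounts, filters, scalings, weights, voom on recovered reads, pseudogene reads added to the parent and leaving out libraries.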

Additional observations from a re-analysis of the deposited data

How the results depend on the processing

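With all libraries, the count of 0 lower members became 1 among protein-coding genes only, 1 with voom and 1 with the GC trend removed, RPL10 each time, 4 at a threshold of 0.05 and 31 with array weights, where siC rep2 weighed 29.2, siC rep1 0.607 and siC rep3 0.0729. Leaving out single libraries gave 0 to 12. No alternative with all libraries called a member higher. The median log2 change changed sign with median centring (0.012), quantile normalization (0.10) and TPM (0.17, where the median of all genes was 0.18). Without siC rep3 the 12 lower members became 4 with quantile normalization (and 1 higher), 5 with median centring, 30 with voom and 28 at a threshold of 0.05. Leaving out a further library gave 0 to 12, and the median stayed between -0.22 and -0.03 in these alternatives. At the threshold of 0.05, 6.81% of all genes were lower with all libraries and 15.7% without siC rep3. Counts under the other settings are given without the share of all genes called. They describe the settings and are not a result about the members. The fits without siC rep3 that change a further choice were added after seeing the data. The cause of these shifts was not tested.

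The sign of some log2 changes that had not passed with all libraries depended on the setting. With TPM the values were 0.13 for RPL11, 0.058 for RPL22L1, 0.16 for RPL26L1, 0.099 for RPL36AL, 0.15 for RPL7L1, 0.016 for RPLP0, 0.12 for RPS19, 0.066 for RPS21, 0.0021 for RPS26, 0.17 for RPS27, 0.098 for RPS27A, 0.18 for RPS6 and 0.012 for RPSA. With quantile normalization they were 0.042 for RPL11, 0.028 for RPL26L1, 0.031 for RPL7L1, 0.11 for RPLP0, 0.27 for RPS12, 0.029 for RPS19, 0.11 for RPS2, 0.070 for RPS21, 0.34 for RPS27 and 0.091 for RPS6. With array weights they were -0.10 for RPL22, -0.15 for RPL23, -0.0029 for RPL26, -0.13 for RPL3, -0.10 for RPL39, -0.044 for RPL5, -0.15 for RPL7 and -0.059 for RPS14. With median centring they were 0.0062 for RPS27 and 0.018 for RPS6. Without siC rep3, quantile normalization gave 0.0075 for RPL36AL, 0.012 for RPL39, 0.082 for RPL5, 0.015 for RPL7, 0.031 for RPL7L1, 0.022 for RPLP0, 0.023 for RPS12, 0.030 for RPS14, 0.0062 for RPS2, 0.028 for RPS27 and 0.049 for RPS27L, removal of the GC trend -0.016 for RPL26 and median centring 0.0031 for RPS27L.

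When single libraries were left out, log2 changes spanned -0.18 to 0.014 for RPL11, -0.14 to 0.26 for RPL22, -0.20 to 0.29 for RPL23, -0.35 to 0.13 for RPL26L1, -0.16 to 0.12 for RPL3, -0.12 to 0.18 for RPL39, -0.044 to 0.40 for RPL5, -0.15 to 0.31 for RPL7, -0.096 to 0.16 for RPS14, -0.23 to 0.015 for RPS19, -0.44 to 0.052 for RPS21, -0.31 to 0.14 for RPS27, -0.014 to 0.34 for RPS27L and -0.27 to 0.13 for RPS6. With siC rep3 and a further library left out they spanned -0.0013 to 0.043 for RPL26, -0.0051 to 0.20 for RPL36A and -0.035 to 0.029 for RPS27L.

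Same-numbered siC and siImp1 libraries did not deviate together (correlations -0.026, -0.12 and -0.11), so the numbers were not taken to pair samples. With the replicate block 0 members passed and the median log2 change was -0.055. With at least 142 reads per library behind each tested member, the number of libraries limits the precision.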
